A study of Mus musculus with 15 samples.

Results

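The genes described here are 10 secreted or membrane-bound cytokines and chemokines of CD8+ T cells: Ifng, Tnf, Il2, Lta, Ltb, Ccl3, Ccl4, Ccl5, Xcl1 and Il10. They were listed by name, not by a threshold on their levels, from the 55536 annotated genes of the gene count table. Of the 10 genes, 9 passed the filter on low counts that left 17366 genes to test, and Il10 did not. RNA came from CD8+ T cells of OT-1 Tg C57BL/6J mice, whose T cell receptor is a transgene that recognises the ovalbumin peptide SIINFEKL, and in the study's methods the donors also lacked Rag1 or Rag2. Each group had 5 libraries. In the Ag group the cells were moved into C57BL/6J recipients that were given the peptide with a rat IgG control, and in the Ag+Costim group the recipients were given the peptide with agonist antibodies to OX40 (CD134) and 41BB (CD137). Both were sorted from spleen and lymph nodes, after 4 days by the labels and after a shorter time by the study's methods. The Naive group was purified from OT-I mice with no transfer and no peptide, so transfer and antigen cannot be told apart in any comparison with it. The groups had the receptor transgene in common, recipients kept their own lymphocytes, and the sort used 1 receptor specificity, so the values speak for this clone of T cells at 1 time.

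CD8+ T cells that meet antigen switch on cytokine genes through the transcription factors NFAT, AP-1 and NF-κB, and most of these mRNAs are short lived because AU-rich elements in their 3′ UTRs recruit decay factors such as the Zfp36 family. Interferon-γ (Ifng) acts on other cells through the receptor Ifngr1-Ifngr2, Il2 drives T cell growth, and Tnf, Lta and Ltb belong to the TNF family. Ccl3, Ccl4 and Ccl5 attract other leukocytes, and Xcl1 attracts dendritic cells that carry Xcr1. Resting memory-like CD8+ T cells are known to hold Ccl5 mRNA in store. Cells sorted directly from an animal, with no restimulation, usually carry little cytokine mRNA.

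The AU-rich stretches are shown first because they are what most of these genes share in sequence. In the GENCODE M21 transcripts (GRCm38), 8 of the 10 genes had at least 1 copy of ATTTA in their longest annotated 3′ UTR. The densest stretch of 30 bases in each of the 4 genes with the best known elements is given with ATTTA in capitals, read 5′ to 3′ on the transcript.

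Tnf (chr17:35199679-35199708, minus strand): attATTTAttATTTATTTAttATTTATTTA
Il2 (chr3:37121040-37121069, minus strand): ctATTTATTTAaatATTTAactttaATTTA
Ifng (chr10:118445330-118445359, plus strand): aacctATTTAttaatATTTAaaactATTTA
Lta (chr17:35203408-35203437, minus strand): tATTTAtggagagaaaagttaagttATTTA

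Counted over the whole 3′ UTR, ATTTA occurred 8 times in Tnf, 7 times in Il2, 6 times in Ifng and in Il10, 5 times in Ccl3, 3 times in Lta, 2 times in Ccl4 and 1 time in Xcl1. Ltb and Ccl5 had none in a 3′ UTR of 174 (Ltb-203) and 199 bases. The 10 genes together held 8.48 copies per kb, against 1.84 per kb over the 11951 tested genes with an annotated 3′ UTR, and 60% of them held 3 or more, against 38.9%. Their 3′ UTRs had a median of 490.5 bases, against 1182. A match is a description of the letters and not a shown decay site.

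A second feature, found in some of the genes, lay near the promoter. Of the 7 genes with an entry in the RefSeq promoter table (Xcl1, Il2, Ifng, Ccl3, Ltb, Tnf and Lta), 4 held TATAAA on the sense strand between 250 bases before and 50 bases after the start, and 8.32% of 32851 promoters did. The 30 bases around each match are shown with TATAAA in capitals.

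Il2 (chr3:37125968-37125997, minus strand): cagcattaacagTATAAAttgcctcccatg
Ifng (chr10:118441004-118441033, plus strand): ccttcgatcaggTATAAAactggaagccag
Tnf (chr17:35202019-35202048, minus strand): ttccccaagggcTATAAAggcggccgtctg
Lta (chr17:35205501-35205530, minus strand): gtgcagaagtgaTATAAAccatcactcttc

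Relative to the start, the match began at -31 in Il2, -30 in Ifng, -29 in Tnf and -167 in Lta. Several of the genes are neighbours. Ltb, Tnf and Lta lie together on chromosome 17, with 3060 bases between Ltb and Tnf and 1157 between Tnf and Lta. Ccl3 and Ccl4 lie 13228 bases apart on chromosome 11, with Ccl5 117325 bases from Ccl3.

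Libraries held between 4865952 (Ag 3) and 25280667 (Naive 3) estimated counts in annotated genes, with a median of 14967616, so 3 counts were worth 0.119 to 0.617 CPM (the count scaled to a common library total). CD8+ T cell markers (Cd3d, Cd3e, Cd3g, Cd8a, Cd8b1, Trac and Trbc1) were present in all 15 libraries, at 4469 to 9789 summed CPM. Several libraries stood apart from others of their group. Naive T cell markers (Ccr7, Lef1, Tcf7 and Il7r) summed to 2259 CPM in both Ag 1 and Ag 4, between the 752 to 910 of Ag 2, Ag 3 and Ag 5 and the 3050 to 4407 of Naive 1 to 4, and Naive 5 had 1501. Activated T cell markers (Cd44, Gzmb, Gzma, Prf1 and Mki67) summed to 316 and 319 CPM in Ag 1 and Ag 4, to 1086 or more in Ag 2, Ag 3 and Ag 5 (at most 1476), and to 976 in Naive 5, against 168 to 573 in Naive 1 to 4. By these sums, Ag 1 and Ag 4 lay within the range of Naive 1 to 4 on the activated list and between the groups on the naive list. Naive 5 lay between Naive 1 to 4 and Ag 2, Ag 3 and Ag 5 on both sums. In Ag+Costim the naive list summed to 640 to 1020 CPM and the activated list to 860 to 1530. Naive 5 was thus above the Ag+Costim range on the naive list and within it on the activated list. Single genes of the activated list were split in Ag 1 and Ag 4. Gzmb (10.8 and 19.8 CPM) and Gzma (11.6 and 12.2) were below all of Naive 1 to 4. Cd44 (74.2 and 79.9), Mki67 (129 and 119) and Prf1 (90.8 and 88.5) were above all of them. Myeloid markers reached 1005 CPM in Naive 5 and at most 178 elsewhere, and erythroid markers reached 1235 CPM in Ag 3. B cell markers were at 1279 to 1621 CPM in Ag 1, Ag 3 and Ag 4 against 581 to 642 in Ag 2 and Ag 5. They were at 589 to 1034 in Naive. Ighm was the largest part of the B cell sum in every library, at 444 to 1245 CPM, with 667 in Ag 3. NK cell markers were at 12.1 to 115 CPM, dendritic cell markers at 12.9 to 114 and CD4+ T cell markers at 3.7 to 36.8. No marker list was at 0 in any group. The labels were used as given, and whether Ag 1, Ag 4 or Naive 5 was mislabelled or mixed was not tested. Results are given with all libraries and, where they change, without these 3. The 3 were picked after seeing the data, by marker sums that differ between the groups, so FDR values without them are a description. The Ag libraries then left are the weaker ones: the lane table lists an input amount, with no unit, of 1.4 for Ag 2 and 1.8 for Ag 5, against 7 or more for every other library. The estimated counts of Ag 3 came to 16.9% of its sequenced reads, against 37.4% or more elsewhere, although the lane table lists 63.5% of its reads as aligned. Lanes also followed the groups: Ag was on lane 2, Naive on lane 3 and Ag+Costim on both, so lane and group cannot be told apart for Ag vs Naive.

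**Figure D1:**
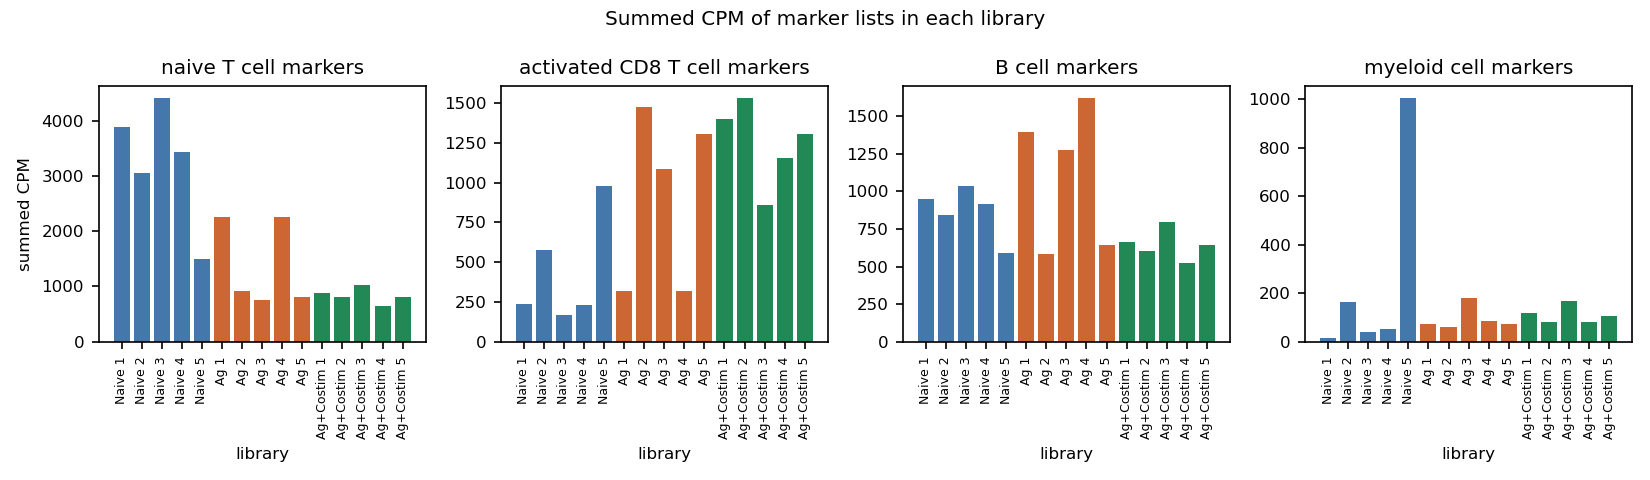
Summed CPM (y axis) of 4 marker lists in each of the 15 libraries (x axis), coloured by group. Naive T cell markers in Ag 1 and Ag 4 (both 2259) lie between the other Ag libraries and Naive 1 to 4, and myeloid markers are high in Naive 5 (1005).

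Per kilobase of exon, Ltb was the most abundant of the 10 genes in every group, with 462 ± 133 CPM per kb (SD, n = 5) in Naive. The Ag mean was 359 ± 210 and the Ag+Costim mean 198 ± 42.1. Ccl5 followed in Naive at 259 ± 110, and then Xcl1 at 14.7 ± 12.5. Xcl1 was above Lta in Naive 2 and Naive 5 but below it in Naive 1, Naive 3 and Naive 4. In Ag, Xcl1 at 106 ± 76 and Ccl5 at 77.7 ± 13.4 CPM per kb were within the SD of Xcl1, and Xcl1 was above Ccl5 in Ag 1 and Ag 4 but below it in Ag 2, Ag 3 and Ag 5. In Ag+Costim, Ccl5 at 52.2 ± 25.8 and Xcl1 at 48.4 ± 15.2 CPM per kb differed by less than their SD. The other 6 genes apart from Il10 had lower means, between 1.79 (Ifng) and 9.47 (Lta) CPM per kb in Naive, between 5.56 (Il2) and 25.1 (Ccl4) in Ag, and between 4.33 (Ifng) and 7.08 (Ccl4) in Ag+Costim. Within Ag+Costim, Il2, Lta, Ccl3, Tnf and Ifng lay between 4.33 and 5.13 CPM per kb, and neighbours in that order differed by less than their SDs.

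**Figure D2:**
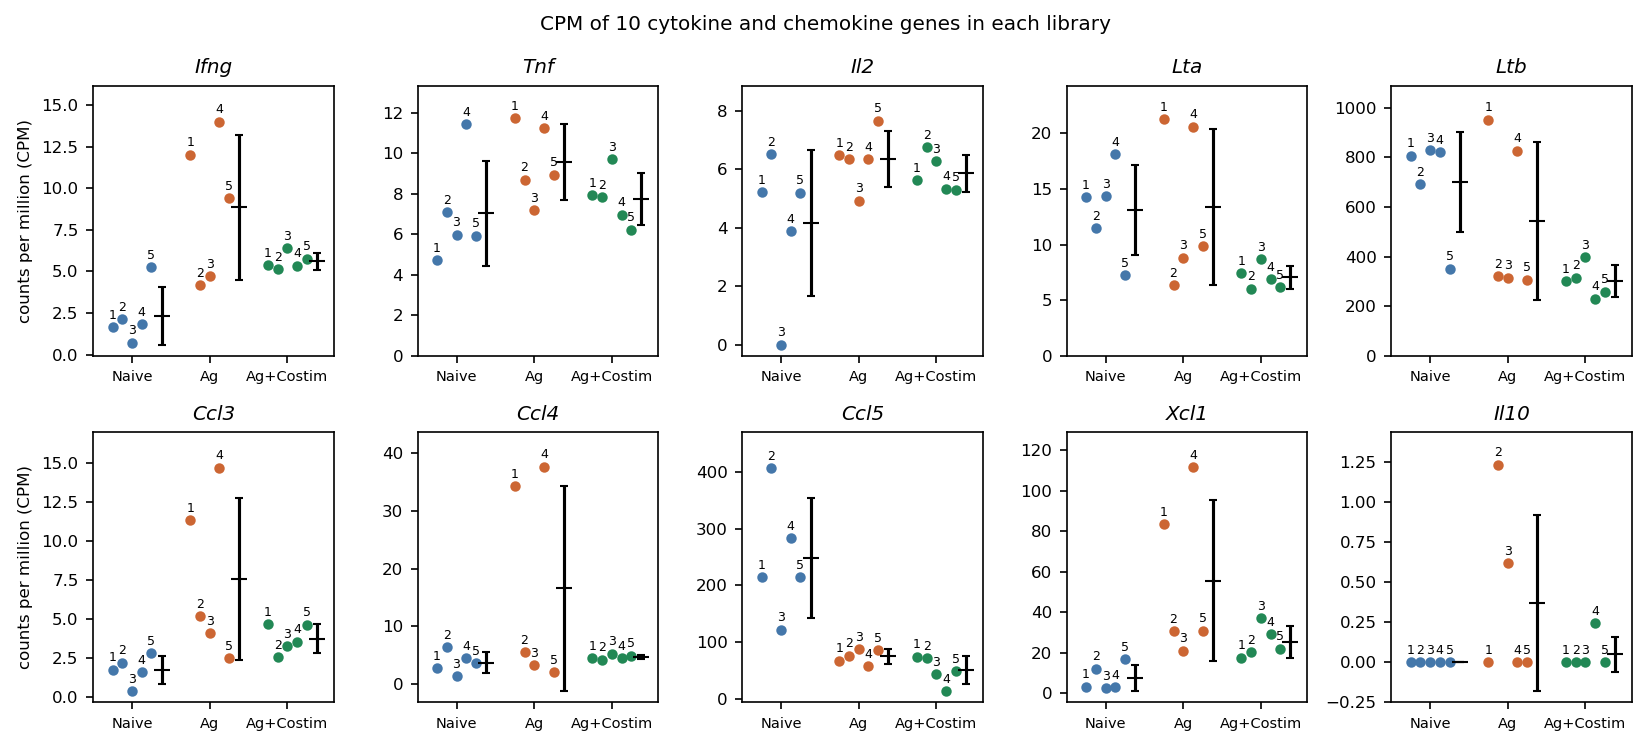
CPM (y axis, 1 scale per gene) in each library of the Naive, Ag and Ag+Costim groups (x axis). Points are libraries with their replicate number, and the black bars give the mean and SD of 5 libraries. Ag 1 and Ag 4 are the highest Ag libraries for Ifng, Tnf, Lta, Ltb, Ccl3, Ccl4 and Xcl1, and Ccl5 is higher in every Naive library than in every other library.

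Antigen alone was compared with no antigen first. Xcl1, Ccl3 and Ifng rose and Ccl5 fell, and the other 5 tested genes did not pass the test. That is 4 of 9 called by edgeR, where 6.71% of all genes were called (3.05% higher and 3.66% lower). For 2 of the 9 (Xcl1 and Ccl5) no CPM value of one group lay within the other, and the same held for 3.63% of all genes. DESeq2 called 5 (these 4 and higher Ccl4), where it called 2609 genes. That was 5.35% of the 48768 genes with a p-value. DESeq2 did not use the edgeR filter, but by its default left genes of low mean count out of the adjustment. Such genes are among the 48768 and could not be called, so its shares are too low to set beside those of edgeR. The median log2 fold change of the 9 genes was 0.72, against 0.08 over all genes tested. The calls depended on the Naive libraries, as did those over all genes. Without Naive 1, 0 of the 4 were kept (1.42% of all genes called), without Naive 4 only Xcl1 (1.52%), and without Naive 3 only Ccl5 and Xcl1 (1.48%), while Ccl5 also lost its call without Naive 2 (5.53%) or Ag 2 (2.84%). Fold changes moved little: without Naive 1 they were 2.67 for Xcl1 (edgeR FDR 0.052), 2.12 for Ccl3 (FDR 0.0715), 1.87 for Ifng (FDR 0.0741) and -1.67 for Ccl5 (FDR 0.0637). With lane as a term, which can only be estimated through Ag+Costim, 0 of all 17366 genes were called (1285 at an unadjusted p under 0.05), and with only the 10 libraries of this comparison 6 of 16742 (0.0358%), none of them among the 9. Xcl1 was then at 2.93 and 2.89, Ifng at 1.98 in both, Ccl3 at 2.38 and 2.14, and Ccl5 at -2.64 and -1.63. Without Ag 1, Ag 4 and Naive 5, 6 were called (these 4, lower Lta and lower Ltb), where 46.6% of all genes were called.

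Xcl1 (ENSMUSG00000026573.7, chr1:164931644-164935527, minus strand), the lymphotactin that recruits cross-presenting dendritic cells, had the largest change of the 9 genes in Ag vs Naive. Naive 1 to 5 held 3.43, 12.3, 2.69, 2.97 and 16.9 CPM. Ag 1 to 5 held 83.5, 30.7, 21.2, 112 and 31.0 CPM, and Ag+Costim 1 to 5 held 17.6, 20.3, 37.2, 29.3 and 22.2 CPM. Every antigen library was above every Naive library, Ag 1 and Ag 4 were highest, and Naive 2 and Naive 5 were the highest Naive libraries. The log2 fold change was 2.87 (SE 0.59, edgeR FDR 0.0153) in Ag vs Naive and 1.85 (SE 0.57, FDR 0.0218) in Ag+Costim vs Naive. Leaving out Ag 1, Ag 4 and Naive 5 gave 2.62 (FDR 0.00111) and 2.45 (FDR 0.000817). Xcl1 overlaps Gm20743, a gene on the other strand, and the libraries did not record strand. Gm20743 held 4.87, 5.75 and 8.19 CPM in Ag 1, Ag 3 and Ag 4 and at most 1.57 in any other library, below the Xcl1 values of the same libraries, and the exchange of reads between them was not tested.

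Ifng (ENSMUSG00000055170.4, chr10:118441046-118445892, plus strand), the main effector cytokine of CD8+ T cells, was at 1.65, 2.15, 0.712, 1.83 and 5.27 CPM in Naive 1 to 5. It was at 12.0, 4.15, 4.73, 14.0 and 9.39 CPM in Ag 1 to 5, and at 5.39, 5.12, 6.41, 5.33 and 5.77 CPM in Ag+Costim 1 to 5. Naive 5 overlapped with the antigen groups, and the other 4 Naive libraries lay below every antigen library. The Ag libraries were spread over a 3.37-fold range, while the Ag+Costim libraries were within 1.25-fold of each other. The edgeR estimate on the log2 scale was 1.98 (SE 0.45, FDR 0.0222) in Ag vs Naive and 1.40 (SE 0.45, FDR 0.0244) in Ag+Costim vs Naive. Without Naive 5, its highest Naive library, it was 2.6 (FDR 0.00121) and 2.03 (FDR 0.00133). The Ag vs Naive call was lost without Naive 1 (1.87, FDR 0.0741), Naive 3 (1.74, FDR 0.0532) or Naive 4 (1.89, FDR 0.0741), and the Ag+Costim vs Naive call without Naive 1 (1.30, FDR 0.064) or Naive 4 (1.32, FDR 0.0626). Read numbers behind Ifng were small, at 172 counts over the 5 Naive libraries, 565 over Ag and 423 over Ag+Costim.

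Ccl3 (ENSMUSG00000000982.5, chr11:83647844-83649355, minus strand), macrophage inflammatory protein 1α, was at 1.78, 2.23, 0.396, 1.60 and 2.83 CPM in Naive 1 to 5. Ag 1 to 5 held 11.4, 5.19, 4.11, 14.7 and 2.50 CPM, and Ag+Costim 1 to 5 held 4.69, 2.56, 3.27, 3.58 and 4.65 CPM. The Ag libraries were above every Naive library except for Ag 5, and Ag 1 and Ag 4 were highest. Its log2 fold change was 2.13 (SE 0.49, edgeR FDR 0.0238) in Ag vs Naive. In Ag+Costim vs Naive it was 1.23 (SE 0.49, FDR 0.0513) and did not pass the threshold, which it did without Ag 1, Ag 4 and Naive 5 (1.53, FDR 0.0101).

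Ccl4 (ENSMUSG00000018930.3, chr11:83662584-83664683, plus strand), macrophage inflammatory protein 1β, showed the widest spread of the tested genes within Ag. Ag 1 and Ag 4 held 34.3 and 37.6 CPM, whereas Ag 2, Ag 3 and Ag 5 held 5.51, 3.29 and 2.06 CPM. Naive 1 to 5 held 2.75, 6.36, 1.38, 4.42 and 3.56 CPM, and the 5 Ag+Costim libraries were between 4.19 and 5.28 CPM. All Ag+Costim values and those of Ag 2, Ag 3 and Ag 5 thus lay within the Naive range. Against Naive, the Ag log2 fold change was 2.17 (SE 0.66, edgeR FDR 0.0626), which did not pass the test. It was 0.19 (FDR 0.765) without Ag 1, Ag 4 and Naive 5, so its size rested on Ag 1 and Ag 4.

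Ccl5 (ENSMUSG00000035042.2, chr11:83525778-83530518, minus strand), RANTES, went the other way from Ccl3 and Xcl1. Naive 1 to 5 held 214, 408, 122, 284 and 214 CPM. Ag 1 to 5 held 66.9, 76.1, 87.8, 57.0 and 85.3 CPM, and Ag+Costim 1 to 5 held 74.1, 71.8, 43.4, 13.2 and 48.1 CPM. Every Naive library was above every antigen library, and Ag 1 and Ag 4 were the lowest Ag libraries. The log2 fold change was -1.62 (SE 0.39, edgeR FDR 0.0285) in Ag vs Naive and -2.16 (SE 0.40, FDR 0.00347) in Ag+Costim vs Naive. Without Ag 1, Ag 4 and Naive 5 it was -1.41 (FDR 0.0381) and -2.18 (FDR 0.00123). NK cell markers, which mark another source of Ccl5, were highest in Naive 2 (115 CPM summed), the library with the most Ccl5, and at 20.9 in Naive 3, the Naive library with the least. Ag 3 had 73.4 CPM of NK cell markers, above Naive 1, 3, 4 and 5, and 87.8 CPM of Ccl5, below all of them. The part of NK cells in the result was not tested.

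Ltb (ENSMUSG00000024399.5, chr17:35194439-35196320, plus strand), lymphotoxin β, which anchors lymphotoxin α in the membrane, was at 806, 691, 830 and 820 CPM in Naive 1 to 4 and at 352 in Naive 5. Ag 1 and Ag 4 held 952 and 826 CPM, and Ag 2, Ag 3 and Ag 5 held 322, 315 and 307 CPM. Ag+Costim 1 to 5 held 300, 316, 398, 231 and 259 CPM. The Ag libraries thus fell into a pair at the level of Naive 1 to 4 and 3 at the level of Ag+Costim. Ltb did not pass the test in Ag vs Naive (-0.31, SE 0.30, edgeR FDR 0.482), and fell in Ag+Costim vs Naive (-1.06, SE 0.30, FDR 0.0171). Without Ag 1, Ag 4 and Naive 5 the Ag vs Naive value was -1.10 (FDR 0.000221), where 46.6% of all genes were called. That fit was chosen after seeing the data, so its FDR is a description and not a test of a fall of Ltb. These libraries are also the ones set apart by the naive and activated T cell markers given above, whose part in the result was not tested.

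Lta (ENSMUSG00000024402.5, chr17:35203165-35205351, minus strand), lymphotoxin α, had the same arrangement as its partner at a lower level. Naive 1 to 5 held 14.3, 11.5, 14.4, 18.1 and 7.24 CPM. Ag 1 to 5 held 21.3, 6.36, 8.84, 20.6 and 9.89 CPM, and Ag+Costim 1 to 5 held 7.42, 6.05, 8.69, 6.91 and 6.16 CPM. The log2 fold change was 0.10 (SE 0.28, edgeR FDR 0.839) in Ag vs Naive, and -0.57 (FDR 0.0377) without Ag 1, Ag 4 and Naive 5. The latter value has the limit given for Ltb in that fit. In Ag+Costim vs Naive it was -0.73 (SE 0.29, FDR 0.0498), a call that 12 of the 23 alternative settings did not keep. Over the 15 libraries the log2 CPM of Lta and Ltb correlated with a Pearson r of 0.90, and with r of 0.89 after each group's mean was taken out, which is given as a description.

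Tnf (ENSMUSG00000024401.14, chr17:35199381-35202007, minus strand), which lies between Ltb and Lta, varied less. It ranged from 4.74 to 11.4 CPM in Naive, from 7.19 to 11.7 in Ag and from 6.23 to 9.69 in Ag+Costim. Ag 1 and Ag 4 were again the highest Ag libraries (11.7 and 11.2 CPM), the highest Naive value, in Naive 4, was close to theirs, and the groups overlapped. Its log2 fold change was 0.54 (SE 0.21, edgeR FDR 0.118) in Ag vs Naive and 0.30 (SE 0.21, FDR 0.248) in Ag+Costim vs Naive.

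Il2 (ENSMUSG00000027720.7, chr3:37120523-37125959, minus strand), the T cell growth factor, was at 5.22, 6.52, 3.89 and 5.20 CPM in Naive 1, 2, 4 and 5 and had 0 counts in Naive 3, the deepest library, which allows up to 0.119 CPM at 3 counts. Ag libraries held 4.93 to 7.66 CPM and Ag+Costim libraries 5.31 to 6.75 CPM. Apart from Naive 3, the groups overlapped, and the values of the other 14 libraries rested on 24 to 138 counts each. The log2 fold change was 0.72 (SE 0.66, edgeR FDR 0.459) in Ag vs Naive, and 0.39 (FDR 0.287) without Naive 3. Adad1, which overlaps Il2 on the other strand, was at no more than 2.06 CPM in any library.

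Il10 (ENSMUSG00000016529.5, chr1:131019845-131024974, plus strand), a suppressive cytokine, was not tested. It had 19 counts in Ag 2 (1.23 CPM), 3 in Ag 3 and 4 in Ag+Costim 4, and 0 in the other 12 libraries. Over the 5 Naive libraries together, 3 counts would have been 0.0374 CPM, so a level below that could not be detected.

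**Figure D3:**
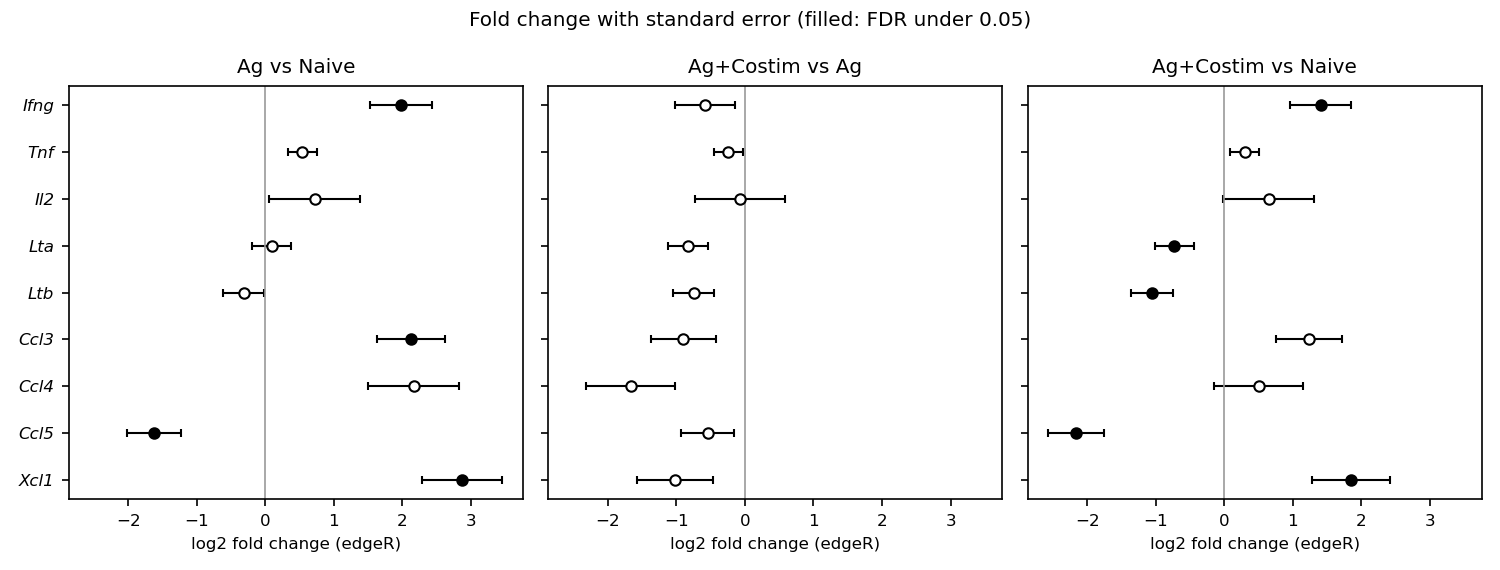
Log2 fold change from edgeR (x axis) with its standard error (bars) for 9 genes (y axis) in the 3 comparisons. Filled points passed an FDR of 0.05: 4 genes in the left panel, 0 in the middle panel and 5 in the right panel.

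The effect of costimulation was addressed by Ag+Costim vs Ag. None of the 9 genes was called by edgeR, where 0.0346% of all genes were (0.0288% higher and 0.00576% lower), and 3 had an unadjusted p under 0.05 (Lta, Ccl4 and Ltb), as did 26.8% of all genes. CPM overlapped between the groups for all 9, and 7.04% of all genes did not overlap. All 9 fold changes were below 0, with a median of -0.74 against -0.10 over all genes tested. The largest were -1.66 for Ccl4 (SE 0.65, edgeR FDR 0.128), -1.02 for Xcl1 (SE 0.55, FDR 0.248) and -0.89 for Ccl3 (SE 0.47, FDR 0.239). Lta was at -0.83 (SE 0.29, FDR 0.102) and Ltb at -0.74 (SE 0.30, FDR 0.138). Ifng was at -0.58 (SE 0.43, FDR 0.397) and Ccl5 at -0.54 (SE 0.39, FDR 0.376). The smallest were -0.07 for Il2 (SE 0.65) and -0.24 for Tnf (SE 0.21).

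For 7 of these genes the value moved toward or past 0 without Ag 1 and Ag 4, their highest Ag libraries. Without them and Naive 5, the difference was -0.10 for Ltb (edgeR FDR 0.736), -0.09 for Ccl3 (FDR 0.939), -0.17 for Xcl1 (FDR 0.862) and -0.28 for Lta (FDR 0.437), and that of Ccl4 turned to 0.34 (FDR 0.688). Ifng then was at -0.18 (FDR 0.803) and Tnf at -0.15 (FDR 0.782). Ccl5, lowest in Ag 1 and Ag 4, moved away from 0 to -0.77 (FDR 0.372), and Il2 to -0.16 (FDR 0.936). In that fit 0 of 18138 genes were called (3644 at an unadjusted p under 0.05). Other tools gave more calls with all libraries. DESeq2 called Ccl4 (FDR 0.0428) and Lta (FDR 0.0498) lower, where it called 5554 of the 48768 genes with a p-value (11.4%). That share has the limit given above for DESeq2. The limma-voom test with sample quality weights called 6 lower (Ccl3, Ccl4, Ifng, Lta, Ltb and Xcl1), where it called 64.5% of all genes. Its weights were 1.76 and 1.5 for Ag 1 and Ag 4 against 0.122, 0.362 and 0.0793 for Ag 2, Ag 3 and Ag 5, so Ag 1 and Ag 4 weighed most in the Ag level behind these 6 calls. Without Ag 2 edgeR called Lta alone of the 9, where it called 14.8% of all genes, and without Ag 5 Ccl4 alone, where it called 19.7%. Within lane 2, with Ag+Costim 1 to 3, 0 of all 16920 genes were called (1185 at an unadjusted p under 0.05).

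Although means did not pass the test, the spread of several genes was narrower in Ag+Costim than in Ag. The coefficient of variation of Ccl4 was 107% in Ag and 9.09% in Ag+Costim, that of Ifng 49.2% and 9.07%, and that of Ltb 58.3% and 21.2%. Tnf (19.8% and 16.8%) and Il2 (15.2% and 10.8%) differed less. The Ag values of Ccl4 and Ltb include the gap between Ag 1 and Ag 4 and the other Ag libraries. The part of that gap, and of input amount, in the spread was not tested. The median over all genes tested was 38.3% in Ag and 12.0% in Ag+Costim, so the fall was general, and it was 25.5% in Naive. Ccl5 was an exception, at 17.2% in Ag and 49.5% in Ag+Costim, where Ag+Costim 4 held 13.2 CPM and the others 43.4 to 74.1.

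The third comparison, Ag+Costim vs Naive, set antigen with costimulation against no antigen. Xcl1 and Ifng rose, and Ccl5, Ltb and Lta fell, while Ccl3, Ccl4 (0.50, SE 0.65, edgeR FDR 0.529), Tnf and Il2 (0.65, SE 0.66, FDR 0.421) did not pass the test. The 5 of 9 genes called by edgeR stand beside 44.7% of all genes called (21.0% higher and 23.6% lower), and the 2 that did not overlap (Xcl1 and Ccl5) stand beside 45.6%. The shares are thus close to, or below, the background of this comparison. Ag vs Naive and Ag+Costim vs Naive use the same Naive libraries, so calls in both are not independent. Without Naive 1 or Naive 4, 2 were called (Ccl5 and Ltb), beside 21.9% and 21.6% of all genes, and without Ag+Costim 4, 3 were called (Ccl5, Ifng and Xcl1), beside 29.6%. Within lane 3, which holds all Naive libraries and Ag+Costim 4 and 5, Ccl5 (-2.85, edgeR FDR 0.0264) and Ltb (-1.34, FDR 0.0289) were called, beside 34.7% of all genes, and with lane as a term only Ccl5 (-2.86, FDR 0.0313), beside 5.43%. Without Ag 1, Ag 4 and Naive 5, 6 were called (these 5 and higher Ccl3), where 56.2% of all genes were called. Limma-voom with quality weights called 7 (these 5, Ccl3 and Il2), where it called 77.9% of all genes. Scaling by library totals alone, which moved the median of all genes in this comparison from -0.08 to -0.23, left the 5 calls in place.

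**Figure D4:**
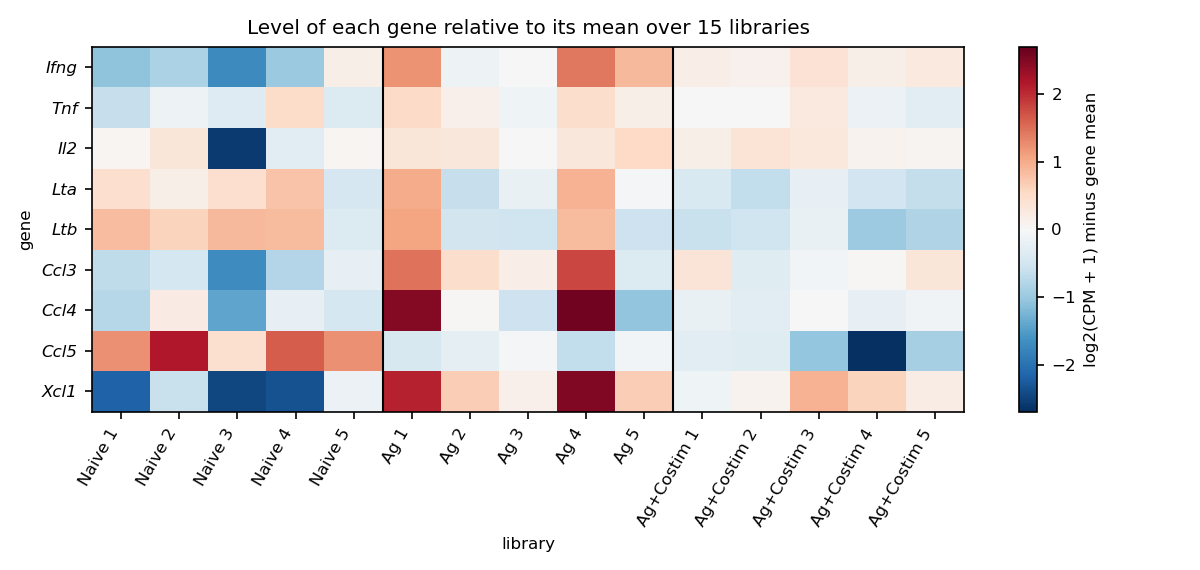
Level of each gene (y axis) in each library (x axis), as log2(CPM + 1) minus the gene's mean over 15 libraries, with black lines between groups. Ag 1 and Ag 4 are red for 8 of the 9 genes and blue for Ccl5, and Ltb and Lta are red in Naive 1 to 4 but not in Naive 5.

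Deposited transcript counts allowed a look at isoforms. Ltb has 3 annotated transcripts, and Ltb-201 held 61.6 ± 22.8% (SD, n = 5) of the Naive counts. Its share was 79.8 ± 11.4% in Ag and 71.5 ± 10.1% in Ag+Costim. The shorter coding transcript Ltb-203 varied widely between libraries, from 0% in Ag 2 to 58.5% in Naive 2. The retained-intron transcript Ltb-202 held 8.72 to 18.1% in Naive, 5.17 to 17.2% in Ag, with the highest value in Ag 1, and 3.96 to 9.78% in Ag+Costim. The groups overlapped, and these shares were not tested. Retained-intron transcripts held 0.26 to 1.91% of Ccl5 counts and at most 8.33% of Ifng counts, and Tnf counts were all assigned to Tnf-201. Reads of 50 bases, as listed in the labels, rarely tell such transcripts apart.

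For each tested gene, the genes with the most similar log2 CPM over the 15 libraries are given as a description, with Pearson r. Libraries of a group share their treatment and most of them a lane, so the points are not independent. Xcl1 was most like Tnfsf11 (r = 0.98), Cd83 (0.97) and Nrp1 (0.97), and Ifng most like Unc119, Crtam and Cd83 (0.94 each). Ccl3 was most like Gfod1 (0.94), A430093F15Rik (0.93) and Cd200 (0.91), and Ccl4 most like Capn3 (0.94), Slamf6 (0.91) and Ccdc28b (0.90). Ltb was most like Ccm2, Ifi213 and Trim12a (0.98 each), and Lta most like I730030J21Rik (0.96), Ankrd13d (0.95) and Trav14d-2 (0.93). Ccl5 was most like G0s2 (0.92), Fam241a (0.86) and Tob1 (0.86). Tnf had weaker matches in Cmtm3 (0.82), Tmbim4 (0.79) and Tmem173 (0.77). Il2 was closest to Gm12543 (0.95), Tmem164 (0.81) and Snx25 (0.78). These values lean on Naive 3, where Il2 had 0 counts, since its other libraries lay between 3.89 and 7.66 CPM.

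The genes around the 10 were read from lists, and their counts stand beside the 6.71% of all genes called in Ag vs Naive and the 44.7% called in Ag+Costim vs Naive. In the latter, 3 of 11, 7 of 10, 6 of 12, 9 of 21, 7 of 13 and 9 of 19 genes were called in the 6 lists, in the order given here. Of 11 tested other T cell cytokine and chemokine ligands, 0 were called in Ag vs Naive (edgeR; 2 at an unadjusted p under 0.05, and 2 by DESeq2). With costimulation against Naive, 2 rose and 1 fell. Cxcl10, an interferon-induced chemokine, rose by a log2 fold change of 1.40 (SE 0.44, FDR 0.0236) and Tgfb1 by 0.61 (SE 0.16, FDR 0.013), and Flt3l, a dendritic cell growth factor, fell by 1.06 (SE 0.28, FDR 0.0127).

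Of 10 tested TNF superfamily ligands beside the members, 3 rose in Ag vs Naive. They were Tnfsf4, the ligand of OX40 (4.00, SE 0.88, edgeR FDR 0.0188), Tnfsf11, RANKL (2.64, SE 0.62, FDR 0.0244), and Tnfsf14, LIGHT (1.12, SE 0.28, FDR 0.0337). Tnfsf4 and Tnfsf11 are also made by other cells, and B cell markers moved with this comparison: 4 of the 6 tested were higher in Ag, and Cd79a was at 32.2, 100.5 and 43.1 CPM in Ag 1, Ag 3 and Ag 4 and at no more than 4.92 elsewhere. The study's sort of transferred cells was gated on CD8, CD45.1 and both chains of the receptor. The part of B cells in these results, and in those of Lta and Ltb, which B cells also express, was not tested. Against Naive, 4 ligands rose with costimulation and 3 fell, with the largest changes in Cd40lg (-2.62, SE 0.61, FDR 0.00819), Tnfsf4 (2.30, SE 0.84, FDR 0.0405) and Tnfsf9, the ligand of 41BB (1.85, SE 0.55, FDR 0.0193).

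Of 12 tested receptors of the 10 genes, Ifngr2, the signalling chain of the interferon-γ receptor, fell in Ag vs Naive (-2.42, SE 0.47, edgeR FDR 0.0135). Its CPM was 40.0 ± 19.6 in Naive and 7.27 ± 5.01 in Ag (SD, n = 5). It was at 1.59 ± 0.51 CPM in Ag+Costim (-4.48 against Naive, SE 0.52, FDR 0.00059). Il2rb, the β chain of the Il2 receptor, rose in Ag vs Naive (0.77, SE 0.21, FDR 0.0452) and in Ag+Costim vs Naive (1.19, SE 0.22, FDR 0.00334), in which Il2ra, the high-affinity chain, rose too (1.90, SE 0.72, FDR 0.0436). In all, 3 receptors rose and 3 fell in Ag+Costim vs Naive.

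Of 21 tested transcription factors that act on cytokine genes, 2 rose and 1 fell in Ag vs Naive. Batf, an AP-1 family member, rose (0.96, SE 0.26, edgeR FDR 0.0387), as did Nfkb1 (0.55, SE 0.14, FDR 0.0349), and Ikzf1, Ikaros, which represses Il2, fell (-0.73, SE 0.16, FDR 0.0202). With costimulation 6 rose and 3 fell against Naive, led by Fos (-3.72, SE 1.08, FDR 0.0176), Egr1 (-2.41, SE 0.58, FDR 0.00881) and Bhlhe40 (1.86, SE 0.65, FDR 0.0338). Fos and Egr1 are immediate early genes of receptor signalling.

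Of 13 mRNA decay regulators, Zfp36, tristetraprolin, which binds AU-rich elements, fell in Ag vs Naive (-1.34, SE 0.24, edgeR FDR 0.0106), from 147 ± 48.4 to 55.0 ± 21.7 CPM (SD, n = 5). Against Naive, 0 rose and 7 fell with costimulation, including Zfp36 (-1.75, SE 0.24, FDR 0.00128), Rc3h2, Roquin-2 (-1.54, SE 0.37, FDR 0.00932), and Zfp36l1 (-1.36, SE 0.47, FDR 0.0324). The list's median was -0.62, against -0.08 over all genes tested.

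Of 19 genes induced by interferon-γ, 3 rose and 1 fell in Ag vs Naive. Ciita, the regulator of MHC class II genes, was at 3.09 (SE 0.69, edgeR FDR 0.0202), the immunoproteasome subunit Psmb9 at 0.95 (SE 0.20, FDR 0.0166) and Socs1, a feedback inhibitor, at -1.18 (SE 0.29, FDR 0.0284). Ciita is also expressed by B cells, whose markers were higher in Ag, as given above. With costimulation 4 rose and 5 fell against Naive, with the largest changes in Gbp8 (-1.62, SE 0.44, FDR 0.0144), Socs1 (-1.53, SE 0.29, FDR 0.00376) and Gbp3 (1.03, SE 0.22, FDR 0.00598). For Ag+Costim vs Ag, 0 genes of the 6 lists were called by edgeR (21 at an unadjusted p under 0.05), and 15 by DESeq2.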

How the data were processed

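Poly(A) RNA of 15 libraries (SMART-Seq v4 with Nextera XT, reads of 50 bases per the labels) was aligned to mm10 by the authors with HISAT2 2.1.0 and SAMtools 1.9 and quantified with StringTie 2.1.0. The deposited gene and transcript tables hold estimated counts as whole numbers, not normalized. The FPKM table, deposited by the authors, holds values scaled for transcript length and depth. Since it gave Ag 1 and Naive 5 the same column, neither library entered the FPKM fits. The deposited lane table gave read counts, percent aligned and the lane of each library. The kit does not mark strand. The annotation release behind the counts is not given in the sources used here.

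Counts per gene were joined to GENCODE M21 (GRCm38) by identifier. The test was edgeR 4.0.16 quasi-likelihood in R 4.3.3, with TMM scaling, filterByExpr, 1 coefficient per group over all 15 libraries, a common biological coefficient of variation of 0.431, and Benjamini-Hochberg adjustment over 17366 genes. FDR is that adjusted p, called under 0.05, two-sided. The SE is the absolute log2 fold change divided by the root of F. The script was tested on simulated data. Alternatives used DESeq2 1.42.0, limma-voom (limma 3.58.1), limma on log2(FPKM + 0.1) and log2(FPKM + 1), other scalings, no filter, lane, a replicate block and fits without single libraries. Promoters are from RefSeq. Depth limits precision to counting error beside the spread between libraries, and the study describes the libraries of a group as separate biological replicates, which the labels do not state. No libraries of the same group agreed within sampling noise (lowest chi-square per degree of freedom 5.62). Libraries of different groups were not compared in this way. Of the table's entries, 26248 had a number only and held 0.0818% of counts. They were left out.

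The 10 genes and the lists were chosen with earlier results of these data known. Some genes of these lists are not reported here and were left out of the sums and counts. Named genes are the 10, in each list and comparison the 3 genes with the largest absolute fold change among those called, and the 3 genes most alike to each of the 10. Likeness was computed from log2 CPM (prior count 2) over genes with a mean of at least 5 CPM. The genes shown with AU-rich stretches and the fits without Ag 3 and Naive 5 or without Ag 1, Ag 4 and Naive 5 were chosen after seeing the data.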

Additional observations from a re-analysis of the deposited data

Results flagged for a closer look

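Among 29 groups of 5 libraries (10 genes in 3 groups, leaving out Il10 in Naive, where all values were 0), Dixon's test for a single far value was passed in 2. About 1.45 would pass by chance. Ltb in Naive 5 was at 352 CPM, while the other Naive libraries were between 691 and 830 CPM. The gap was 0.711 of the group's range, just past the critical value for 5 libraries. Il10 in Ag+Costim 4 was at 0.242 CPM, from 4 counts, while the other Ag+Costim libraries had 0 counts. Where all others are at 0, any count passes this test, so the Il10 pass carries no weight.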

How the results depend on the processing

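Over 27 fold changes (9 genes in 3 comparisons) and 612 refits, 524 kept their sign and side of the threshold, 44 lost a call, 28 gained one and 16 changed sign; the cause was not tested. In Ag vs Naive, where 4 of the 10 genes were called, 2 were called with no filter on low counts, 0 with only the 10 libraries of the comparison and 0 with lane as a term, and 0 to 5 when single libraries were left out. In Ag+Costim vs Ag (0 called), DESeq2 called 2 and limma-voom with quality weights 6, and 0 to 1 were called when single libraries were left out. In Ag+Costim vs Naive (5 called), 3 were called with no filter, 1 with lane as a term and 2 within lane 3, and 2 to 6 when single libraries were left out. Genes called in the 6 lists numbered 13 in Ag vs Naive and 0 in Ag+Costim vs Ag, against 23 and 15 by DESeq2. Signs changed for Lta in Ag vs Naive, which was -0.058 with lane as a term, -0.47 on log2(FPKM + 0.1), -0.42 on log2(FPKM + 1), -0.57 without Ag 1, Ag 4 and Naive 5, and between -0.085 and 0.28 without single libraries. Il2 in Ag+Costim vs Ag was 0.049 with limma-voom, 0.16 with no filter, 0.0030 with lane as a term, 0.018 within lane 2, and between -0.14 and 0.058 without single libraries. Ccl4 in Ag+Costim vs Ag was 0.34 without Ag 1, Ag 4 and Naive 5. Within-lane values do not exist for Ag vs Naive, since no lane holds both groups.

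Over all genes, calls were 1165, 6 and 7755 in the 3 comparisons, 2609, 5554 and 9349 with DESeq2, and 4020, 11195 and 13525 with limma-voom. Libraries that share a replicate number did not deviate together in every pair (correlations from -0.32 to 0.47, and not every library correlated best with its own number), so the numbers were not taken as pairs. With a replicate block, the members called were 4, 0 and 6 in Ag vs Naive, Ag+Costim vs Ag and Ag+Costim vs Naive, the calls over all genes were 1660, 0 and 7833, and Il2 in Ag+Costim vs Ag was 0.0058. Per-kilobase levels used exon length, and the mean transcript length moved Ltb in Naive from 462 to 603 CPM per kb and Ccl5 in Naive from 259 to 414. Ag 3, the shallowest library, limits the low genes most, since 3 counts are 0.617 CPM in it.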
